A study of Mus musculus with 8 samples.

Results

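DNA methylation was described at 9 genes of pluripotency and early germ cells, Pou5f1, Nanog, Sox2, Sall4, Lin28a, Utf1, Zfp42, Dppa3 and Prdm14. The samples were mouse testis cells that the study isolated as type A spermatogonia. The members were all cytosines read from 2 kb upstream of the transcription start site (TSS) to the gene end, by RefSeq gene models on mm10. They numbered 856 of the 2130064 cytosines in CpGs (CpG: a C followed by a G) on chromosomes 1 to 19, X and Y, and they belonged to 592 CpGs, since each strand of a CpG was read on its own. Of these cytosines, 133 lay in promoters (1 kb upstream to 100 b downstream of the TSS), 715 in gene bodies (from there to the gene end) and 8 further upstream. Cytosines were read at 8 of the 9 genes, and Nanog had 0. The cells came from F1 males at postnatal day 6, whose C3H/HeN mothers drank tap water (control group) or tap water that held sodium arsenite at 85 ppm between gestational days 8 and 18 (arsenic group). The pools are the replicates. Each group had 4 samples, each pooled from 8 testes of 4 mice, and the cells were taken by magnetic beads with an antibody to CD49f (Itga6). RRBS (reduced representation bisulfite sequencing) was used, in which MspI cuts at CCGG and a C that survives bisulfite conversion is read as methylated.

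Pou5f1 (Oct4), Sox2 and Nanog are transcription factors that together keep embryonic stem cells pluripotent, and Sall4 is a zinc finger factor that works with them. Lin28a binds RNA and holds back let-7 microRNAs, while Utf1 is a chromatin protein and Zfp42 (Rex1) a zinc finger protein used as markers of undifferentiated cells. Prdm14 and Dppa3 (Stella) act in primordial germ cells, the founders of the germ line, in which most DNA methylation is erased. In the male germ line methylation is laid down again before birth, and CpG-dense promoters mostly escape it. Among the 9 genes, Sall4, Lin28a, Utf1 and Pou5f1 are known to be used in undifferentiated spermatogonia, whereas Nanog and Sox2 are largely silent there.

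The sequences upstream of 4 of the genes show the range of starting material for the assay. Each is the RefSeq reference of GRCm38.p6 (the mm10 assembly), 5′ to 3′ on the strand of the gene and ending at the base before the TSS. Capitals mark the CpGs that were read.
Pou5f1 (chr17:35505732-35506031, plus strand): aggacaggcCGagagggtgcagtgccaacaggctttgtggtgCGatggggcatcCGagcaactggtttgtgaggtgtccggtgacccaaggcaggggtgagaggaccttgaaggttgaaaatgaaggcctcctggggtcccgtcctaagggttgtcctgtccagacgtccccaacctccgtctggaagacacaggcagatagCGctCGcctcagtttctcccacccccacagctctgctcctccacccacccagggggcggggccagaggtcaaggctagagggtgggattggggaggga
Zfp42 (chr8:43307010-43307309, minus strand): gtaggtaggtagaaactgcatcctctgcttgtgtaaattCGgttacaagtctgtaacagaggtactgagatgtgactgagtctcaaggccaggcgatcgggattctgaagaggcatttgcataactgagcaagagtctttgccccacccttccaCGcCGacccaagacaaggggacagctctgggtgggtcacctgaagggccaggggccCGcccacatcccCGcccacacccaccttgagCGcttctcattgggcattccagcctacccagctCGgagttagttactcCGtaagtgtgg
Sox2 (chr3:34649795-34649994, plus strand): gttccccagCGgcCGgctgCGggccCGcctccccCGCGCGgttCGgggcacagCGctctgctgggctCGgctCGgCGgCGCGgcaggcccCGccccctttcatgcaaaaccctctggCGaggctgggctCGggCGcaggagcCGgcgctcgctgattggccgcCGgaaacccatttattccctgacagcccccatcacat
Nanog (chr6:122707189-122707488, plus strand): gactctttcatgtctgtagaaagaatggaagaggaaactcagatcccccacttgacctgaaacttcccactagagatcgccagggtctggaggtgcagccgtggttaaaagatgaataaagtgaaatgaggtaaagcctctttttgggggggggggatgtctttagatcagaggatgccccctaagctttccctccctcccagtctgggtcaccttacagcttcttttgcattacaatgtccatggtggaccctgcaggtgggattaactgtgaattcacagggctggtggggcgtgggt
In the Pou5f1 sequence 5 of 10 CpGs were read and in the Zfp42 sequence 8 of 10, and both were partly methylated, with control means of 55.1% to 76.6% at the Pou5f1 cytosines and an average of 38.3% over all samples at the Zfp42 cytosines. In the shorter Sox2 sequence 20 of 23 CpGs were read, and the 34 cytosines read up to -37 averaged 2.49%. They were at 12.1% in control sample 4 and at 0% to 2.65% in the other samples. The Nanog sequence holds 3 CpGs, of which 0 were read.

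Samples had 96428439 to 133406260 reads on CpGs, and the median CpG was covered 31 to 44 times. The members were covered 10 to 347 times in a sample. The labelled cell type was checked with promoters of maternally imprinted genes, which are unmethylated in male germ cells and methylated on 1 allele in somatic cells. Of 11 such promoters 7 were covered, and their average was 55.3% to 67.7% in the 8 samples, with 0 of 7 at or below 10%. Of 12 promoters of germ line genes that somatic cells methylate, such as Ddx4 and Dazl, 10 were covered. Their averages were 80.2% to 84.9%, with 0 of 10 at or below 10%. The stretch 2 kb to 4 kb upstream of H19, which male germ cells methylate on both alleles, stood at 58.1% to 81.2% over 4 cytosines, with means of 70.5% in control and 62.0% in arsenic. Over all covered promoters the median was 1.80%. These values go against DNA from germ cells alone, and how much of the DNA came from spermatogonia was not measured. The levels below are thus those of the sorted pools and cannot be read as levels of spermatogonia. Of the 7 imprinted promoters, Sgce and Zrsr1 differed by -0.000838 and -0.0209 points and the others were lower in the arsenic group, while of the 11 bodies of the list 6 were lower and 5 higher. The list averages of the promoters were 59.6% in arsenic and 62.6% in control, and the samples of the groups overlapped (55.3% to 67.4% and 60.05% to 67.7%). The part of other cells in the levels below was not tested, and a mixture of cells cannot be told apart from a mixture of alleles within a cell.

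Levels were low at some promoters and high at others, and intermediate in some stretches described below. Of 856 cytosines, 433 (50.6%) had a mean level of at most 5% over the samples. Among the 5 promoters with at least 3 cytosines, those of Sox2, Sall4 and Prdm14 were nearly unmethylated, with means of 2.04%, 1.57% and 1.83% over the 8 samples. Those of Pou5f1 and Zfp42 were methylated at 67.5% and 69.7%. The highest level of any sample at the 3 unmethylated promoters was 9.83% and the lowest at the methylated ones was 56.2%. The promoters were sorted into these sets by the same levels. The promoters of Pou5f1 and Zfp42 stood at percentiles 91.1 and 91.6 of the 11973 covered promoters of all genes. Sox2 stood at percentile 55.2, Prdm14 at 50.9 and Sall4 at 43.4. The mean and rank of Sox2 were raised by control sample 4, at 9.83%, while its other samples were at 0% to 2.14%.

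The number of CpGs in the promoter window was 62 for Sox2, 35 for Zfp42, 32 for Sall4, 29 for Prdm14 and 21 for Pou5f1, against a median of 44 over covered promoters. Promoters with 20 to 39 CpGs had a median level of 2.43%, with quartiles of 1.28% and 17.8% (n = 3777). Pou5f1 and Zfp42 thus lay above the upper quartile of promoters with as many CpGs, and Sall4 and Prdm14 between the lower quartile and the median of the same class. The plot of level against CpG number places the 5 promoters among all others.

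**Figure D1:**
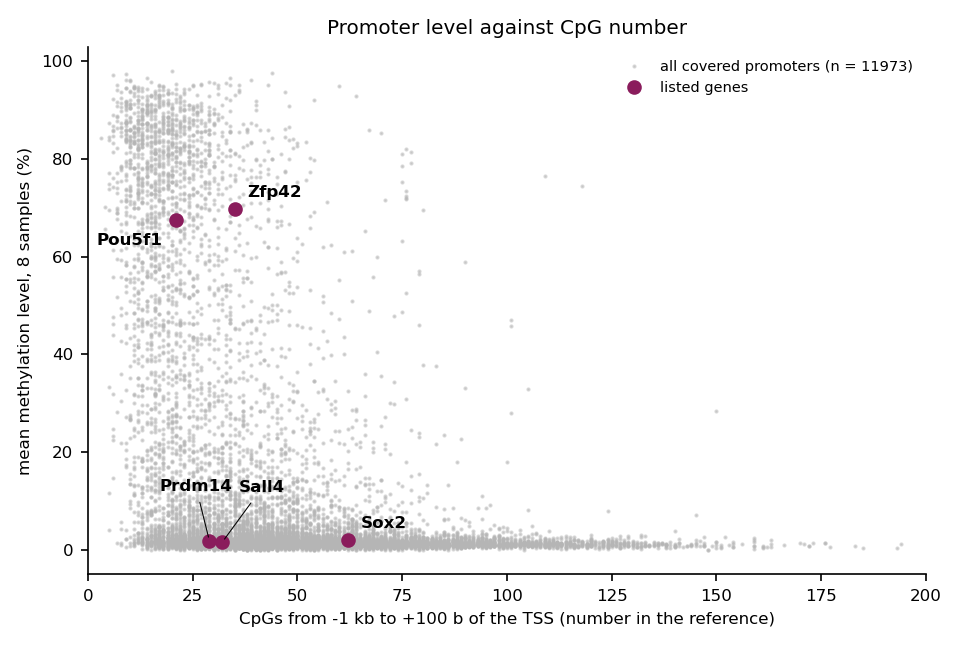
Mean methylation level over the 8 samples (%) against the number of CpGs in the promoter window, for all 11973 covered promoters (grey) and the 5 covered promoters of the listed genes (purple, named). Pou5f1 and Zfp42 lie at 67.5% and 69.7%, while Sox2, Sall4 and Prdm14 lie at 1.57% to 2.04%.

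Promoters of 4 genes gave no value. The promoter windows of Nanog and Dppa3 hold 0 CCGG, and 75.8% of the promoters of all genes hold at least 1. The windows of Lin28a and Utf1 hold 5 and 2, and still no cytosine there was covered in all 8 samples. From 2 kb upstream to its end, Nanog has 118 CpGs and 3 CCGG in 9.15 kb, and its methylation was not analysed here, since the values used were limited to cytosines read at least 10 times in all 8 samples. At the other 8 genes, 17.7% (Pou5f1) to 39.1% (Sox2) of the CpGs of the window were read.

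At Pou5f1 (chr17:35506032-35510777, plus strand), all parts read were methylated. Its promoter level rested on 8 cytosines and was 65.1%, 69.2%, 56.2% and 69.8% in control samples 1 to 4, and 72.8%, 70.0%, 65.2% and 71.3% in arsenic samples 1 to 4. The mean was 65.1% ± 6.29 (SD, n = 4) in the control group and 69.9% ± 3.29 (SD, n = 4) in the arsenic group. The 3 highest samples were arsenic samples and the lowest was control sample 3, and the groups overlapped. The difference was 4.77 percentage points, and leaving out a sample gave 1.80 points (without control sample 3) to 6.35 points (without control sample 4). Each sample had 127 to 237 reads over these 8 cytosines. The gene body, with 17 cytosines, was at 66.0%, 58.8%, 64.7% and 58.4% in the control samples and 63.0%, 63.1%, 62.3% and 57.4% in the arsenic samples. A second TSS lies 2775 b downstream. Between the upstream TSS and this one, 8 intronic cytosines from +2018 to +2157 averaged 73.0%, whereas 2 at +1731 and +1758 averaged 30.8% with a range of 10.1% to 55.4% over samples.

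Sox2 (chr3:34649995-34652461, plus strand), a gene with a single exon, was nearly unmethylated in most of the samples and stretches read. Its 97 body cytosines averaged 0.454% to 2.78% in the 8 samples, and the 72 in coding sequence averaged 1.15%. The 7 cytosines of the 3′ untranslated region were at 0.493% to 4.40% in 7 samples and at 15.1% in arsenic sample 4. This body stood at percentile 3.80 of the 19047 covered gene bodies. Further upstream 4 cytosines averaged 2.89%. The promoter, with 42 cytosines from -356 to -37, was at 2.14%, 1.23%, 1.49% and 9.83% in control samples 1 to 4 and at 0%, 0.405%, 0.366% and 0.838% in arsenic samples 1 to 4. All 4 arsenic samples were thus below the lowest control sample. Over all genes this held for 1.69% of covered promoters, and the reverse, every arsenic sample above, for 1.28%. The value of 0% came from 42 cytosines read 16 to 46 times each, and the 46 reads of the deepest allow a level of up to 6.52%. Control sample 4 stood apart from the others, and 30 of its 42 cytosines had a methylated read, of which 27 had exactly 2, at coverages of 10 to 24. In the 3 other control samples 3 to 6 cytosines had a methylated read, and in the arsenic samples 0 to 4. Neighbouring cytosines share reads, so these are few molecules and not 42 separate measurements. Without control sample 4 the difference between the groups shrank from -3.27 to -1.22 percentage points, and the groups still did not overlap. At a coverage of at least 20 in every sample too few cytosines remained for a value. The gene lies within Sox2ot, a non-coding gene on the same strand.

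Sall4 (chr2:168748332-168767201, minus strand) was read at 280 cytosines, the most of any of the genes, and changed from unmethylated to methylated along its length. From -470 to +1617, 96 cytosines averaged 0.595% to 2.26% in the 8 samples. From +2128 to +5082, 48 intronic cytosines averaged 10.6%. From +5837 to +17049, 136 cytosines averaged 84.6% to 87.8%. A dip to 69.1% was seen at 27 cytosines of coding sequence from +11301 to +11731, against 93.8% at 46 cytosines from +12104 to +12695. The promoter alone, with 39 cytosines, was at 1.99%, 2.51%, 1.49% and 0.882% in the control samples and 0.706%, 1.40%, 1.67% and 1.87% in the arsenic samples. The body averages, 52.1% ± 0.775 (SD, n = 4) in control and 50.4% ± 1.03 in arsenic, thus join parts near 0% and near 90%. An antisense gene, Gm14261, overlaps Sall4.

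Lin28a (chr4:134003330-134018816, minus strand) showed the same order with a longer middle part. Its 42 cytosines from -1292 to +1838 averaged 1.67%, the 43 from +3242 to +12826 averaged 34.5%, and the last 6, from +15117 to +15313 in the 3′ untranslated region, averaged 84.3%. The body as a whole was at 24.8%, 25.4%, 22.6% and 21.7% in the control samples and 25.2%, 23.2%, 23.2% and 22.5% in the arsenic samples. Prdm14 (chr1:13113428-13127163, minus strand) was at 2.43% over 115 cytosines from -7 to +2043 and at 73.9% over 30 cytosines from +5472 to +8624. Its promoter value came from only 6 cytosines near the TSS, with 0.599% to 3.06% in the samples. Utf1 (chr7:139943856-139945112, plus strand) was read only at 52 cytosines of its coding sequence, which averaged 0.165% to 6.41% and stood at percentile 7.35 of gene bodies.

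Zfp42 (chr8:43295067-43307009, minus strand) was methylated from the promoter to the last coding exon. Its promoter, with 38 cytosines, was at 70.3%, 69.4%, 68.9% and 70.1% in the control samples and 68.0%, 69.5%, 72.7% and 68.5% in the arsenic samples. The promoter itself was uneven. The 30 cytosines from -901 to -346 averaged 76.2% to 81.1% in the 8 samples, and the 8 cytosines from -261 to -11, those printed above, averaged 24.4% to 46.5%. These stretches, chosen after their values were seen, moved in opposite directions between the groups. Nearer the TSS the mean was 43.5% in control and 33.1% in arsenic, lower at 7 of 8 cytosines, at coverages of 11 to 31. Further upstream it was 76.6% in control and 79.5% in arsenic, higher at 24 of 30. There every arsenic sample lay above every control sample, while nearer the TSS the groups overlapped. The share of all such stretches at which groups do not overlap was not counted. As the promoter was split by its values, the separation in 1 part cannot be read as a group difference. Taken whole, the 38 cytosines were higher in arsenic by only 0.0442 points, with samples of both groups intermixed. The gene body, 50 cytosines, was at 79.9%, 85.5%, 86.7% and 78.8% in the control samples and 86.4%, 89.7%, 86.2% and 86.0% in the arsenic samples, and stood at percentile 89.6 of gene bodies.

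Dppa3 (chr6:122626424-122630271, plus strand) was read at 32 cytosines, in introns and coding sequence, and averaged an intermediate level in each stretch. The 11 cytosines from +244 to +539 averaged 62.5%, the 12 from +776 to +1245 averaged 39.9% and the 9 from +2290 to +2440 averaged 42.8%. Its body was at 50.5%, 46.3%, 46.8% and 49.3% in the control samples and 47.2%, 47.9%, 49.1% and 50.4% in the arsenic samples.

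**Figure D2:**
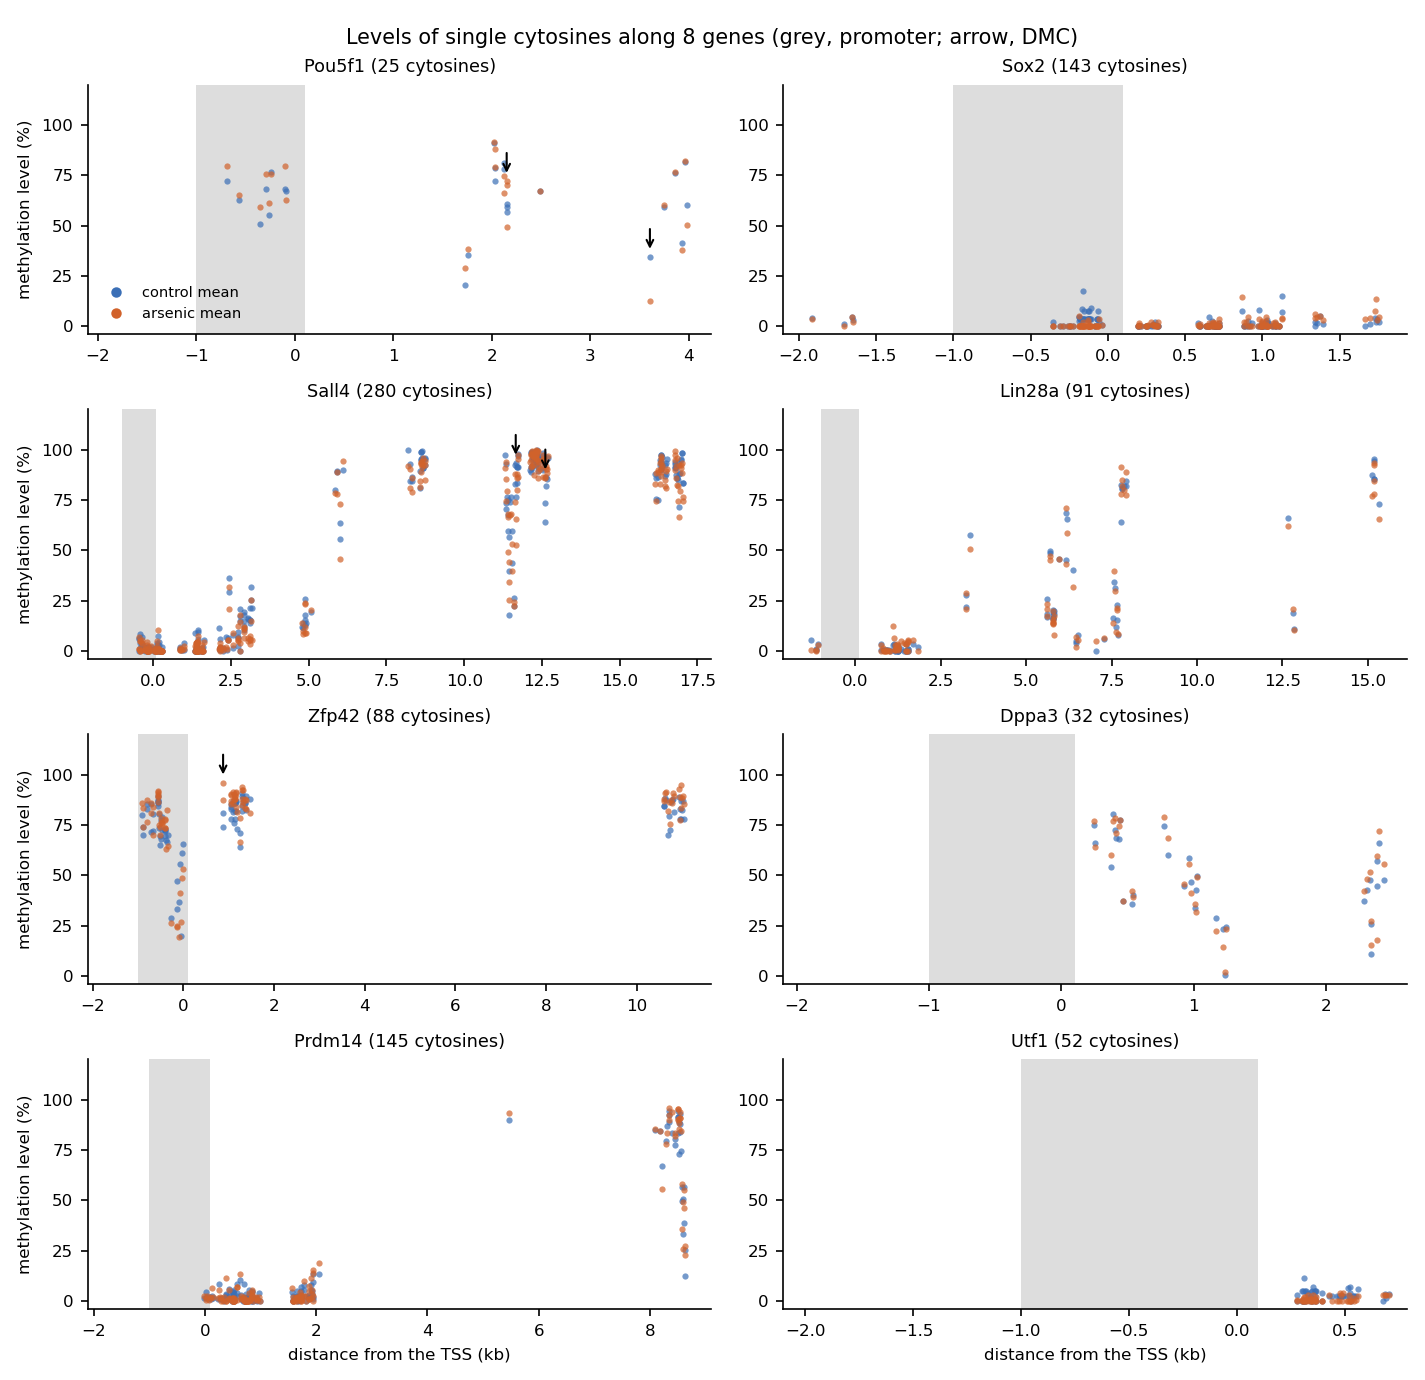
Methylation level of each cytosine (%, mean of the 4 control samples in blue and of the 4 arsenic samples in orange) against its distance from the TSS (kb), with the promoter in grey and arrows at differentially methylated cytosines. Sall4, Lin28a and Prdm14 rise from near 0% at the 5′ end to high levels further in, Sox2 and Utf1 stay near 0%, and Pou5f1, Zfp42 and Dppa3 are methylated where they were read.

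The study asked at which stage of male germ cell development methylation changes of arsenic-exposed sons arise. For each gene the average levels of the promoter, the body and the stretch from 2 kb to 1 kb upstream were compared between the groups with limma, fitted over the regions of all genes with Benjamini-Hochberg adjustment. An exact permutation test over the 70 ways to assign the samples, whose smallest two-sided p is 0.0286, was added for each value. With limma, 0 of 5 promoters, 0 of 8 bodies and 0 of 2 upstream stretches reached an adjusted p of 0.05, and 1 region had an unadjusted limma p under 0.05. Over all genes limma likewise passed 0 of 11973 promoters, 0 of 19047 bodies and 0 of 3906 upstream stretches, with 457, 1155 and 186 at an unadjusted p under 0.05. Of the promoters 3 were lower and 2 higher in the arsenic group, with a median difference of -0.307 percentage points, and over all genes 6260 were lower and 5677 higher with a median of -0.0543. Of the bodies 4 were lower and 4 higher, with a median of 0.00703 points, against 11692 lower and 7348 higher and a median of -0.267 over all genes.

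The largest difference of a promoter was at Pou5f1, 4.77 ± 3.23 percentage points (arsenic minus control, standard error), with an adjusted p of 0.900 by limma and an exact permutation p of 0.171. At the Sox2 promoter the difference was -3.27 ± 1.79 points, with an adjusted p of 0.900 by limma and an exact permutation p of 0.0286, the smallest possible. The promoters of Prdm14, Sall4 and Zfp42 differed by -0.549, -0.307 and 0.0442 points, each less than its standard error. At a coverage of at least 20 the Zfp42 promoter differed by 3.03 ± 1.57 points (limma) and with weighted means by 1.79 points. The body of Sall4 differed by -1.69 ± 0.684 points (adjusted p = 0.805, limma), with arsenic samples at 49.1%, 50.9%, 50% and 51.5% and control samples at 51.3%, 53.1%, 51.8% and 52.0%, and an exact permutation p of 0.0571. Arsenic sample 4 lay above control sample 1, and leaving out a sample gave differences of -2.06 to -1.27 points. At a coverage of at least 20 the difference of the Sall4 body was -0.397 points. The body of Zfp42 differed by 4.33 ± 1.92 points (adjusted p = 0.812, limma, and exact permutation p = 0.143). Leaving out a sample gave differences of this body from 3.03 points (without control sample 4) to 5.65 points (without control sample 3).

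At Utf1 the body differed by -1.86 ± 1.30 points (limma), and the control samples spread over 0.582%, 6.41%, 0.455% and 3.91% against 1.79%, 1.43%, 0.551% and 0.165% in the arsenic samples. Without control sample 2 this difference was -0.667 points. The bodies of Pou5f1, Sox2, Dppa3, Prdm14 and Lin28a differed by -0.493, 0.449, 0.424, 0.108 and -0.0940 points, each less than its standard error. With coverage-weighted means the Lin28a body differed by -1.86 ± 1.34 points and the Dppa3 body by 1.68 ± 1.85 points (limma). The upstream stretches of Lin28a and Sox2, 4 cytosines each, differed by -1.66 and -0.611 points, and at both the groups overlapped. Without control sample 3 these differences were -0.523 and -0.0446 points. No body of the 8 and neither upstream stretch had groups that did not overlap. Over all genes every arsenic sample was below every control sample at 2.98% of bodies and 2% of upstream stretches, and above at 0.914% and 1.08%.

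**Figure D3:**
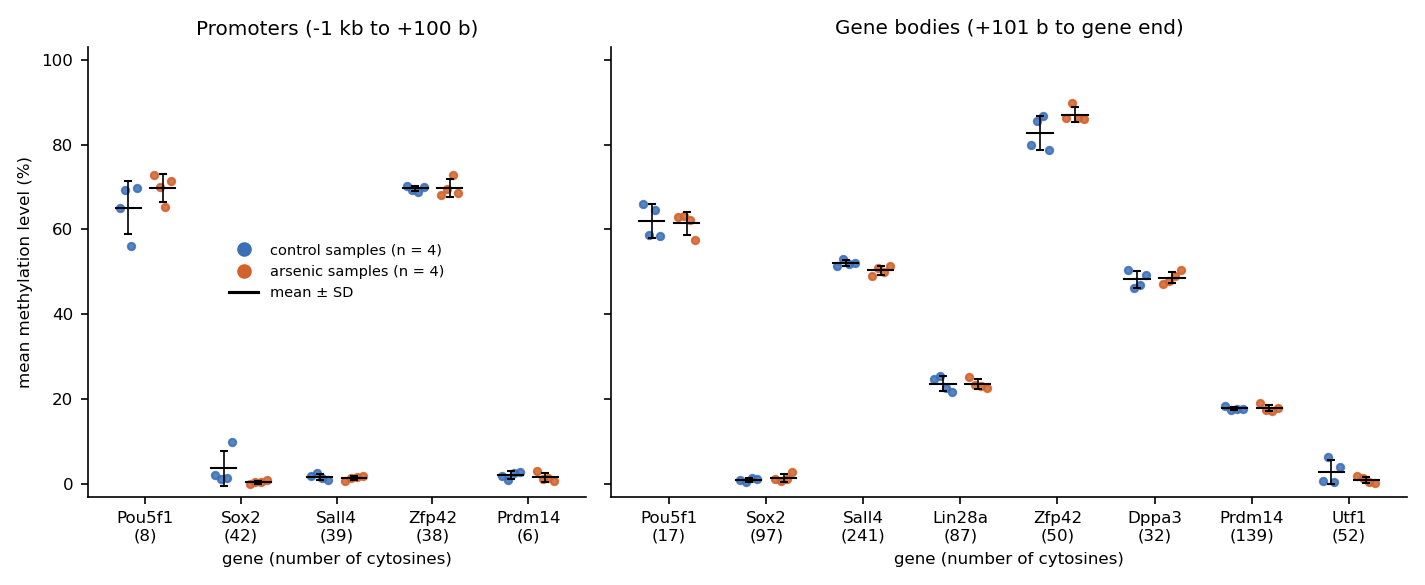
Mean methylation level (%) of the covered promoters (left) and gene bodies (right) of the genes, with 1 point per sample (control in blue, arsenic in orange), the mean as a line and the SD as a bar. Only at the Sox2 promoter do the groups not overlap, where the control samples lie between 1.23% and 9.83% and the arsenic samples between 0% and 0.838%.

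Differentially methylated cytosines (DMCs) were called with the likelihood-ratio test on the pooled reads of each group, at a q of at most 0.01 and a difference of at least 10 percentage points. This test counts reads as independent. Of the 856 cytosines, 2 were hypoDMCs (0.234%) and 3 were hyperDMCs (0.350%), and over all CpGs 0.323% were hypoDMCs and 0.228% were hyperDMCs. They lay in Pou5f1 (1 lower, 1 higher), Sall4 (1 lower, 1 higher) and Zfp42 (1 higher), all in gene bodies. Each is printed below with 20 bases on either side in the direction of the gene, from the GRCm38.p6 reference, with the CpG of the DMC in capitals.
Pou5f1 +2150 (chr17:35508162-35508202, plus strand): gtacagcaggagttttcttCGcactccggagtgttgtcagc
Pou5f1 +3604 (chr17:35509616-35509656, plus strand): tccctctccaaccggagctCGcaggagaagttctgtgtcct
Sall4 +11656 (chr2:168755525-168755565, minus strand): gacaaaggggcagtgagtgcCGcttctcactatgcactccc
Sall4 +12608 (chr2:168754573-168754613, minus strand): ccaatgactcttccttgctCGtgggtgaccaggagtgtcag
Zfp42 +880 (chr8:43306109-43306149, minus strand): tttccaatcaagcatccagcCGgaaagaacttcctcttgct
At each of the 5, every arsenic sample lay on the same side of every control sample. The 5 were picked for a large pooled difference, which favours this, and its share among all DMCs was not counted.

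The largest difference was at +11656 of Sall4, in coding sequence. Its level was 95.2%, 100%, 87.5% and 90.9% in control samples 1 to 4 and 64.3%, 47.2%, 50% and 50% in arsenic samples 1 to 4, at 12 to 53 reads, a pooled difference of -42.2 percentage points (q = 9.35e-12, likelihood-ratio test). The opposite strand of this CpG, at +11657, was at 76.3% in control and 65.6% in arsenic with overlapping groups (q = 0.0363). Of the 26 other cytosines in the run from +11301 to +11731, 18 were lower and 8 higher in the arsenic group, and 0 were DMCs. The Sall4 cytosine at +12608 was at 60.9%, 74.2%, 51.9% and 69.2% in control and 81.2%, 90.9%, 88.2% and 84.2% in arsenic, a pooled difference of 21.9 points (q = 0.00706, likelihood-ratio test). Its partner on the opposite strand was also higher, by 12.7 points, and did not pass (q = 0.0361).

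In Pou5f1 the intronic cytosine at +3604 was at 25%, 35.5%, 39.4% and 37.5% in control and 16%, 18.9%, 12.1% and 3.33% in arsenic, at 24 to 40 reads, a pooled difference of -22.4 points (q = 0.00480, likelihood-ratio test). The opposite strand was not read, and the nearest other cytosine, 139 b away, differed by 1.10 points. The cytosine at +2150 was read 84 to 161 times and was at 54.7%, 65.8%, 50.9% and 55.2% in control and 69.7%, 70.8%, 73.8% and 74.0% in arsenic, a pooled difference of 14.6 points (q = 0.000946, likelihood-ratio test). On the opposite strand of the same CpG, at +2149 and 16 to 42 reads, the mean was 59.2% in control and 49.2% in arsenic, the other direction (q = 0.407). With both strands summed the difference was 9.74 points, under the threshold. In Zfp42 the intronic cytosine at +880 was at 61.9%, 82.4%, 79.4% and 73.3% in control and 90.5%, 100%, 96.8% and 96.7% in arsenic, at 15 to 34 reads, a pooled difference of 21.8 points (q = 0.00128, likelihood-ratio test). On the opposite strand of this CpG, at +881 and 42 to 68 reads, the mean was 81.0% in control and 87.2% in arsenic (q = 0.231, likelihood-ratio test). The other 30 cytosines of the run from +880 to +1476 were higher in the arsenic group at 26 and lower at 4, by 3.75 points on average.

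With the strands of a CpG summed, the difference at +11656 of Sall4 was -19.3 points and that at +880 of Zfp42 was 12.1 points, and both still passed. When each of the 8 samples was left out in turn, +11656 of Sall4 passed each time. The call at +2150 of Pou5f1 was lost without control sample 3, and that at +880 of Zfp42 without control sample 1 or arsenic sample 2. Those at +3604 of Pou5f1 and +12608 of Sall4 were each lost in 5 of 8 cases.

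Counting error was wide at single cytosines. At each of the 5 DMCs the 95% exact binomial (Clopper-Pearson) intervals of the nearest samples of the groups overlapped. At +11656 of Sall4, for instance, they were 71.0% to 96.5% in control sample 3 (28 of 32 reads) and 44.1% to 81.4% in arsenic sample 1 (18 of 28 reads). These pairs were chosen as the closest, so their overlap does not measure the counting error of the group difference. When the samples were taken as the replicates, limma over all CpGs passed 0 of the 856 cytosines (lowest adjusted p = 0.971) and 0 of all CpGs. Its unadjusted p was under 0.05 at 55 of the 856 (6.43%) and at 5.07% of all CpGs.

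The other 5 genes had no DMC, and the cytosine with the lowest p of the likelihood-ratio test was taken from each. In Dppa3 it lay in coding sequence at +2384, at 64.7%, 50%, 30.8% and 33.3% in control and 9.09%, 33.3%, 11.8% and 17.2% in arsenic (q = 0.0553, likelihood-ratio test). In Lin28a it lay in an intron at +5820, with means of 19.9% and 7.80% (q = 0.0346). At both, the groups overlapped. The Dppa3 cytosine, with 11 to 30 reads, was the only 1 of the 9 from +2290 to +2440 that was lower in the arsenic group. The mean of these 9 was 42.2% in control and 43.3% in arsenic. At Prdm14 +508, in an intron, all 4 arsenic samples and 2 control samples were at 0%, and the other two control samples were at 5.08% and 10%, a pooled difference of -3.57 points (q = 0.00361, likelihood-ratio test) that was under the threshold of size. The zeros came from 76 to 105 reads and allow levels of up to 3.95% to 2.86%. At Sox2 -165 the control samples were at 20%, 0%, 0% and 14.3% and all arsenic samples at 0% (q = 0.0402), and the zeros from 10 to 27 reads allow up to 30.0% to 11.1%. At Utf1 +517 control sample 2 was at 26.3% and the other 7 samples were at 0%, with 24 to 57 reads that allow up to 12.5% to 5.26%. These limits cover counting error only.

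**Figure D4:**
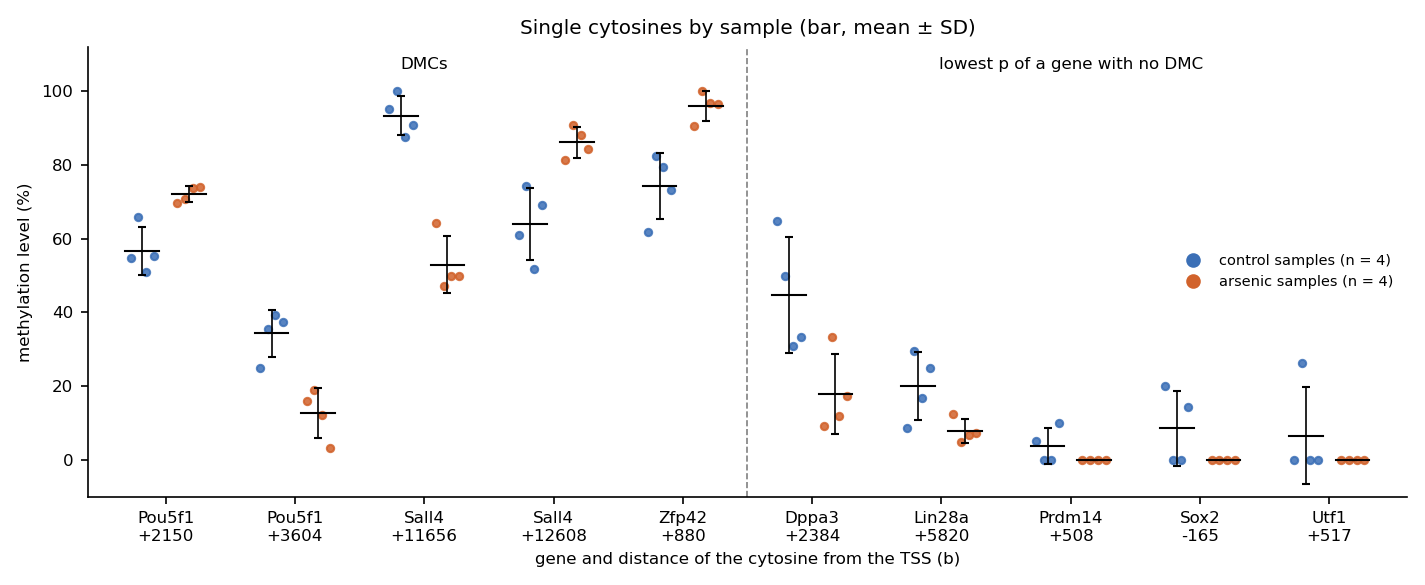
Methylation level (%) of the 10 named cytosines, with 1 point per sample (control in blue, arsenic in orange), the mean as a line and the SD as a bar. At the 5 DMCs, picked for a large pooled difference, all arsenic samples lie on the same side of all control samples. The widest gap, between 64.3% and 87.5%, is at +11656 of Sall4.

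Cytosines at which every arsenic sample lay beyond every control sample were counted next. At 11 of the 856 (1.29%) all arsenic samples were below and at 11 (1.29%) above, against 1.21% and 0.892% of all CpGs. Sall4 held 8 of those below and 4 of those above. Of the 8, 5 lay in an intron from +2802 to +3180, all on the same strand and each with 16 to 32 reads per sample, and none of the 5 was a DMC. The 22 cytosines from +2715 to +3180, a stretch chosen after its values were seen, were at 10.2%, 17.1%, 15.3% and 17.7% in control and 4.92%, 7.62%, 9.85% and 13.6% in arsenic, lower at 18 of 22, and the groups overlapped. Prdm14 held 1 below and 3 above, and the 3 above were at +920, +8389 and +8542. At +920 the means were 0.546% and 2.12%, and at +8542, with 142 to 216 reads, 87.9% and 94.0%. Over each gene, Zfp42 had 69 cytosines higher and 19 lower in the arsenic group, Utf1 8 higher and 31 lower, Sall4 102 higher and 154 lower, and Sox2 40 higher and 55 lower. Pou5f1 had 16 higher and 9 lower, Dppa3 20 and 12, Lin28a 39 and 48, and Prdm14 66 and 71. Cytosines of a run share reads, so these counts are not counts of separate measurements.

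Neighbouring cytosines at most 200 b apart were also joined into runs, of which 38 had at least 3 cytosines. In the arsenic group 21 of these were lower and 17 higher. At 2 of the 38 every arsenic sample was below every control sample and at 0 above, against 2.08% and 1.06% of all 188877 such runs in the genome. The runs were the Sox2 promoter and the 3′ end of Lin28a. The 6 cytosines of Lin28a, in the 3′ untranslated region, were at 85.5%, 87.5%, 85.4% and 89.1% in control and 83.1%, 82.6%, 82.0% and 79.4% in arsenic, lower at each of the 6, with 21 to 92 reads.

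Other genes of pluripotency also had promoters at low and at high levels. Of 31 such genes, among them Klf4, Esrrb, Nodal and Stat3, 18 had a covered promoter, with a median level of 1.70% and 11 at or below 10%. The highest were Tcl1 at 81.2%, Tdh at 77.0% and Dppa4 at 73.4%. Over all genes the median of covered promoters was 1.80%, and 77.2% of them were at or below 10%. In the arsenic group 6 of the 18 promoters were lower and 12 higher, with a median difference of 0.217 points, and at 0 of them did the groups not overlap. With limma 0 of the 18 reached an adjusted p of 0.05, and 0 had an unadjusted p under 0.05. Of the 28 covered bodies 13 were lower and 15 higher, 0 passed with limma and 2 had an unadjusted p under 0.05, against 6.06% of the bodies of all genes. These were Nodal, which was lower, and Dppa4, higher by 4.86 points, both named after their values were seen. The body of Nodal, a signalling ligand of the early embryo, was the only one of the 28 at which every arsenic sample was below every control sample, against 2.98% of all bodies. It was at 23.7%, 24.3%, 25.3% and 22.8% in control and 19.04%, 21.0%, 19.9% and 22.0% in arsenic (adjusted p = 0.651, limma).

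Of 7 genes of primordial germ cell specification, 2 had a covered promoter. Prdm1, a repressor that sets germ cell fate, was at 0.310%. Kit, the receptor of stem cell factor and a mark of differentiating spermatogonia, was at 0.210%, 10.6%, 10.4% and 0.632% in control and at 0.657%, 0.143%, 0.372% and 0.275% in arsenic. The difference of -5.08 points at Kit rested on control samples 2 and 3, and the groups overlapped (adjusted p = 0.900, limma). Of the 5 covered bodies 3 were lower and 2 higher, and 0 passed with limma, also at an unadjusted p under 0.05.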

How the data were processed

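RRBS libraries of cells isolated as type A spermatogonia, from 4 control and 4 arsenic pools, were used. According to the submitters' processing notes, the authors used Trim Galore 0.6.5, Bismark 0.22.3 and methylKit 1.22.0 with mm10. The deposited table gives counts of methylated and unmethylated reads per cytosine and sample, and its lowest coverage is 10 in every sample, so that cytosines read in fewer samples are not in it. Of 2131605 cytosines, the 2130064 on chromosomes 1 to 19, X and Y were used. Samples had 96428439 to 133406260 reads on CpGs. PCR duplicates cannot be told from separate molecules without molecular identifiers, so intervals and limits cover counting error only.

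Gene models were RefSeq's on GRCm38.p6 (mm10), of 26180 genes with a curated transcript, and the most 5′ curated TSS was used. Coordinates are 1-based, and distances are counted from the TSS at 0. The level of a cytosine is the methylated share of its reads in percent. The level of a region is the mean over its cytosines without weights, for regions with at least 3 cytosines. Regions were compared with limma 3.58.1 with a trend (R 4.3.3), over all genes, with Benjamini-Hochberg adjustment, and by two-sided exact permutation. DMCs were called by a likelihood-ratio test on pooled counts, computed directly and not with methylKit, with Benjamini-Hochberg q of at most 0.01 over all CpGs and a difference of at least 10 percentage points. Limma on log2((methylated + 1)/(unmethylated + 1)) was run per cytosine. The likelihood-ratio test, the F test, the stratified test, limma on promoter levels and the exact permutation test were first tested on simulated data. Limma on log2 ratios, limma with the replicate block and Dixon's rule were not, so their power to find a change was not tested. Computing used pysam 0.24.0, pandas 2.3.3, scipy 1.17.1 and numpy 2.4.6 under Python 3.11.15, and matplotlib 3.10.9 for plots.

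Named were the 9 genes, each DMC in them, the cytosine with the lowest p of each gene, and other genes of the lists whose promoter groups did not overlap (0) or that are said to be named for their values. The members and lists were chosen with earlier results of these data known. Alternatives were a coverage of at least 20, weighted means, summed strands, log2 ratios, other TSSs, a minimum of 1 cytosine, bodies without alternative promoters, other tests of cytosines, a replicate block and leaving out each sample.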

Additional observations from a re-analysis of the deposited data

Results flagged for a closer look

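In groups of 4 samples the highest or lowest sample was compared with the others, and a gap to its neighbour, as a share of the range of the group, above Dixon's 95% critical value was taken as standing apart. Chance does this in about 1 of 20 groups, and 5 of the 50 groups examined did. That rate does not hold for the named cytosines, which were picked from the same values, or for levels near 0%. The count of 5 can thus not be set against it. At the Sox2 promoter control sample 4, at 9.83%, stood above the other control samples, which were at 1.23% to 2.14%. In the body of Pou5f1 arsenic sample 4, at 57.4%, stood below the others at 62.3% to 63.1%. In the body of Zfp42 arsenic sample 2, at 89.7%, stood above the others at 86.0% to 86.4%. At +11656 of Sall4 arsenic sample 1, at 64.3%, stood above the others at 47.2% to 50% and was the arsenic sample nearest to the control samples. At +517 of Utf1 control sample 2, at 26.3%, stood above the others, which were all at 0%.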

How the results depend on the processing

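With limma 0 regions of these genes passed an adjusted p of 0.05 in any alternative. Of the region differences computed under alternatives 189 kept their sign and 22 did not, and 25 differences at named cytosines lost a call, with no change of sign. Some alternatives cannot change a sign. The replicate block leaves each region difference as it is, and the other tests of cytosines use the same pooled difference. These counts are thus not a measure of stability. The number of promoters whose groups did not overlap, 1 as reported, was 0 at a coverage of at least 20 (Pou5f1 and Sox2 then have too few cytosines), 2 over the union of every TSS (Pou5f1 as well, 3.00 points higher in arsenic), and 1 to 2 when a sample was left out. That of bodies, 0 as reported, was 1 with both strands summed (Sall4, -1.76 points) and 0 to 1 when a sample was left out. Where the left-out sample was the one that overlapped, the groups then did not overlap of necessity. The share of such cases over all genes was not counted. The 5 DMCs (2 lower, 3 higher) became 3 at a coverage of at least 20 (1 of them lower), where Sall4 +11656 and Zfp42 +880 are not covered. Leaving out a sample gave 3 to 5 (1 to 2 lower and 1 to 4 higher). With limma per cytosine there were 0 (0 lower, 0 higher), and likewise 0 (0 lower, 0 higher) with an F test scaled for overdispersion, which also called no changed site in simulated data and so says nothing of stability.

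Signs turned at small differences. At a coverage of at least 20 the Sall4 promoter differed by 0.0466 points. With strands summed the Zfp42 promoter differed by -1.58 and the Lin28a body by 0.00514 points. Weighted means and a coverage of at least 20 moved the Zfp42 promoter the other way, to 1.79 and 3.03 points. With weighted means the Pou5f1 body differed by 0.610 and the Prdm14 body by -0.0874 points, and on the log2 scale by 0.0357 and -0.00712. Leaving out a sample gave -0.965 to 0.604 points at the Zfp42 promoter, and in bodies -1.67 to 0.856 at Pou5f1, -0.000658 to 0.685 at Sox2, -0.217 to 1.18 at Dppa3, -0.734 to 0.499 at Lin28a and -0.259 to 0.338 at Prdm14. The causes were not tested.

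Samples of the groups share replicate numbers, and the deviations of same-numbered samples correlated by -7.81e-05 to 0.00178, with 4 samples correlating best with their own number. The labels do not say whether the numbers pair the samples, and correlations this small cannot decide it. With the replicate block 0 regions passed with limma, and a stratified test gave 4 DMCs, without Sall4 +12608. The difference of the Sox2 promoter stayed at -3.27 points, which the block cannot change. At single cytosines coverage limits precision.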
